A study of Mus musculus with 15 samples.

Results

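The mRNAs of 9 chemokines and of the growth factor CSF1 were followed across 5 lines of LL2 lung cancer cells. The genes were chosen by name but with earlier results of these data known, as ligands that attract neutrophils (*Cxcl1*, *Cxcl2*, *Cxcl5*), T cells (*Cxcl10*, *Cxcl12*, *Cxcl16*) and monocytes (*Ccl2*, *Ccl7*, *Cx3cl1*), with *Csf1* beside them, and they are 10 of the 35880 gene symbols in the deposited table. Of these, 9 passed a filter on low values (CPM summing to 3 or more across the 15 samples) that 14652 genes passed, and *Cxcl12* did not. CPM are counts scaled to 1 common total per sample.

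LL2 (Lewis lung carcinoma) is a mouse lung tumor line, used here with a luciferase reporter (LL2/Luc2). LL2 WT is the parental line. *KEAP1* KO #1, #2 and #3 carry a Cas9 disruption of *Keap1*, whose protein delivers the transcription factor NRF2 to degradation, and *NRF2* KO carries one of *Nfe2l2*, the gene of NRF2. Each knockout line was expanded from 1 sorted cell, so the effect of the knockout and that of the single clone cannot be told apart within a line. All 5 lines were grown in the same medium without immune cells, with 3 biologic replicates each, and the comparison asks how NRF2 activity bears on what the tumor cells express. The sources used here do not say what separated the replicates, so p-values measure only the spread between these samples, which may be technical.

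Chemokines are small secreted proteins that bind G protein-coupled receptors on leukocytes and set up the gradients along which the cells migrate. Ligands that share a short motif before their first cysteines, such as CXCL1, CXCL2 and CXCL5, act on CXCR2 and draw neutrophils, while CCL2 and CCL7 draw monocytes through CCR2. CSF1 keeps macrophages alive and drives their differentiation through CSF1R. In tumors these ligands shape which myeloid and lymphoid cells enter.

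The CPM of a sample sum to between 998941 and 999306, and 17270 to 19750 genes per sample lay above 0. The depth of a sample is not known, so no counting interval is given. As a check of the labels, the log2 fold change of *Keap1* was −0.95, −2.07 and −2.06 in the clones #1, #2 and #3 and −0.02 in *NRF2* KO, and that of *Nqo1*, a target of NRF2, was 3.97, 3.19, 4.02 and −1.61 in the same order. *Nfe2l2* mRNA stood at 170 to 208 CPM in LL2 WT, 102 to 146 CPM in *NRF2* KO and 87.0 to 124 CPM in the 9 *KEAP1* KO samples, so its level did not set *NRF2* KO apart. Of the epithelial markers, *Krt8* and *Krt18* stood at 65.1 to 575 CPM, whereas *Epcam* and *Cdh1* did not pass 0.0618 CPM and the lung lineage marker *Scgb1a1* was at 0 in every sample. The 7 macrophage and monocyte markers summed to between 14.96 and 17.5 CPM in LL2 WT, 15.4 to 18.4 CPM in *NRF2* KO and 31.1 to 61.4 CPM in the *KEAP1* KO clones, of which *Cd68* and *Cd14* made up most, and *Adgre1* was at 0 throughout and *Ptprc* at no more than 0.192 CPM. The log2 fold changes of all genes against LL2 WT had a median of 0.11 in *KEAP1* KO #1 and 0.01 after rescaling by the median ratio, with which the calls went from 667 higher and 584 lower to 553 higher and 724 lower.

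Replicate 3 stood apart from replicates 1 and 2 in all lines. With a term for it, 4.31% of genes were called between replicate 3 and the others (4.03% higher, 0.273% lower), 3 of the 9 members among them. *Cxcl1* was 1.55 higher in replicate 3 on the log2 scale (adjusted p = 5.63e-05), *Cxcl5* 1.44 higher (adjusted p = 0.000255) and *Cx3cl1* 1.03 higher (adjusted p = 0.000281), and for each of these 3 genes replicate 3 was the highest sample in 5 of 5 lines. *Ccl2* was 0.66 higher (adjusted p = 0.00652) without passing the fold threshold. For *Ccl7* and *Csf1* the difference was 0.05 and 0.10, and replicate 3 was the highest in 2 of 5 lines. The labels do not say what replicate 3 shares across lines. Because of it, the calls of members below are also given with replicate 3 as a batch term and for replicates 1 and 2 alone. The values of some members and the genes of the other lists are given without these fits.

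**Figure D1:**
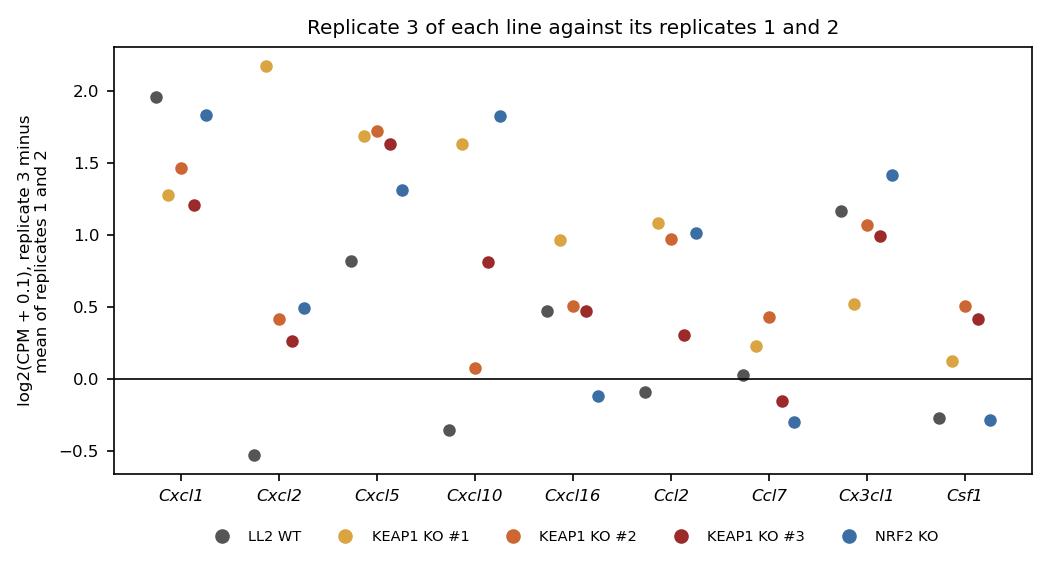
Difference between replicate 3 and the mean of replicates 1 and 2 on the log2(CPM + 0.1) scale (y axis) for 9 members (x axis), with 1 point per line in the color of the line. All 5 points lie above 0 for *Cxcl1*, *Cxcl5* and *Cx3cl1*, and they lie on both sides of 0 for *Ccl7* and *Csf1*.

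Against LL2 WT, no member was called in all 3 *KEAP1* KO clones with the 15 samples fitted without a term for the replicate number. A gene is described as called where limma gave an adjusted p under 0.05 and the log2 fold change was beyond 1 in either direction. As the members were chosen with earlier results known, their counts beside the share of all genes are a description and not a test. In *KEAP1* KO #1, *Cxcl2*, *Cxcl10* and *Cxcl16* were called, all higher, that is 3 of the 9 members tested where 8.54% of all genes were called (4.55% higher and 3.99% lower). In *KEAP1* KO #3 it was *Cxcl1* and *Cxcl5* (higher) and *Cx3cl1* (lower), 3 of 9 where 13.4% of genes were called (6.09% higher and 7.34% lower). In *KEAP1* KO #2 limma called 0 of 9 members, against 13.7% of all genes (5.94% higher and 7.75% lower), and the unadjusted p was under 0.05 for 3 of them and for 42.9% of all genes. Limma also called 0 of 9 in *NRF2* KO, against 0.464% (0.0887% higher and 0.375% lower), with 0 members at an unadjusted p under 0.05, where 11.2% of all genes were.

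The calls moved when replicate 3 was treated apart. With replicate 3 as a batch term, 4 members were called in *KEAP1* KO #1 (background 10.9%), 2 in #2 (15.6%), 4 in #3 (15.5%) and 0 in *NRF2* KO (1.18%). With replicates 1 and 2 alone the counts were 2 (8.33%), 2 (14.2%), 3 (14.9%) and 0 (0.293%). *Cxcl1* in *KEAP1* KO #1 and #2 and *Cx3cl1* in #2 were added both ways, so that *Cxcl1* was called in all 3 clones. Its adjusted p in #1, #2 and #3 was 0.000112, 5.59e-05 and 1.45e-06 with the batch term and 0.00232, 0.00126 and 0.000179 with replicates 1 and 2 alone. The batch term also added *Cxcl10* in #3, which was not called with replicates 1 and 2 alone (1.00, adjusted p = 0.106). *Cxcl2* (1.16, adjusted p = 0.333) and *Cxcl16* (1.16, adjusted p = 0.0594) in #1 were not called with replicates 1 and 2 alone.

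The 4 comparisons share the LL2 WT samples, so their values stand side by side and are not independent. Without regard to any threshold, 4 members lay wholly above LL2 WT in *KEAP1* KO #1 (*Cxcl10*, *Cxcl16*, *Ccl7*, *Csf1*), where 24.6% of all genes did, and 6 did in #3 (*Cxcl1*, *Cxcl2*, *Cxcl5*, *Cxcl10*, *Ccl2*, *Csf1*), where 22% did. In #2 it was 0 members (23.4% of all genes). Wholly below LL2 WT lay 0 members in #1 (12.4%), *Ccl7* in #2 (18.6%) and *Cx3cl1* in #3 (18%). For 0 members did all 9 *KEAP1* KO samples lie above LL2 WT (12.9%) or below it (7.69%). In *NRF2* KO every tested member overlapped LL2 WT (8.68% of all genes lay above and 4.53% below).

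**Figure D2:**
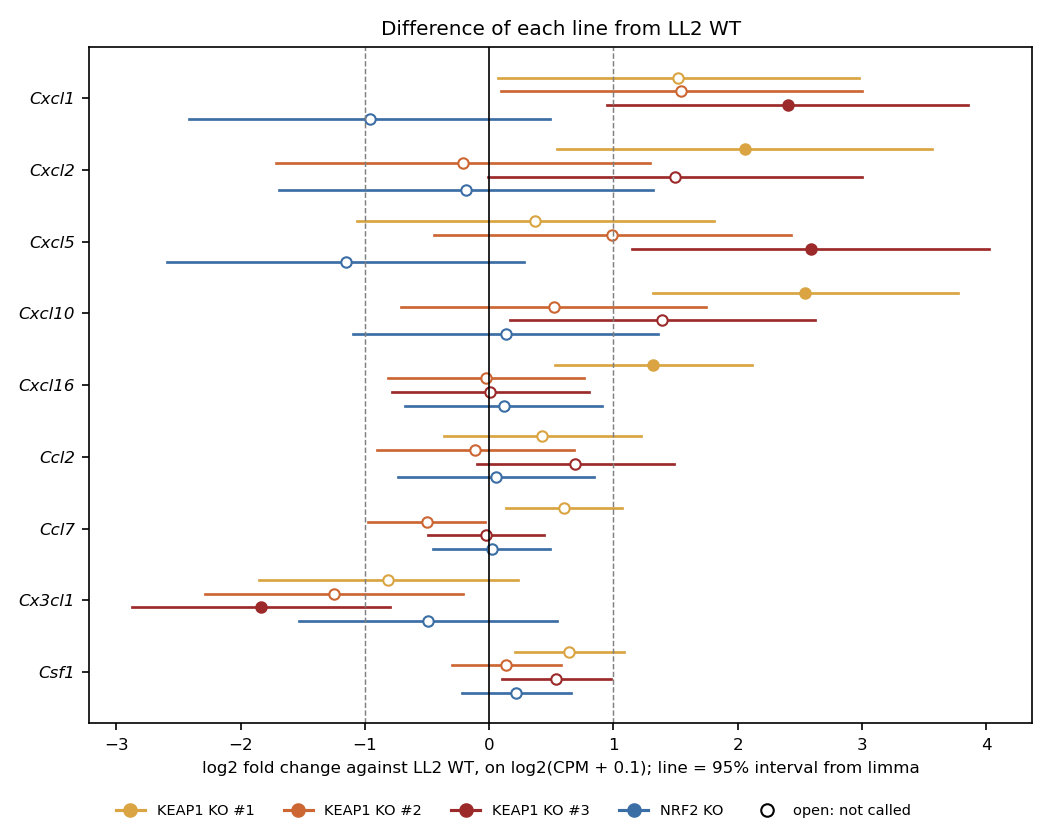
Log2 fold change of each member against LL2 WT on the log2(CPM + 0.1) scale (x axis) in the 4 knockout lines (colors), with 95% intervals from limma as lines, filled points for called differences and dashed lines at −1 and 1. *Cxcl1* and *Cxcl5* in *KEAP1* KO #3 and *Cxcl10* in *KEAP1* KO #1 lie farthest to the right, *Cx3cl1* in *KEAP1* KO #3 farthest to the left among called values, and no point of *NRF2* KO is filled.

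*Cxcl1*, *Cxcl2* and *Cxcl5* encode ligands of CXCR2 and lie near each other on chromosome 5 (GRCm38.p6). *Cxcl1* spans chr5:90891241-90893115, *Cxcl2* starts 10.8 kb after its end, and *Cxcl5* (chr5:90759360-90761624) ends 130 kb before it. The sequences upstream of *Cxcl1* and *Cxcl2* are shown because both genes are known targets of NF-kB. They are the 250 bases before the RefSeq start site, on the plus strand, chr5:90890995-90891244 and chr5:90903649-90903898. Capitals mark matches to the NF-kB motif (GGG, any 3 bases, TTCC) on either strand, where a run of 11 capitals is a pair of overlapping matches on the 2 strands.
Cxcl1: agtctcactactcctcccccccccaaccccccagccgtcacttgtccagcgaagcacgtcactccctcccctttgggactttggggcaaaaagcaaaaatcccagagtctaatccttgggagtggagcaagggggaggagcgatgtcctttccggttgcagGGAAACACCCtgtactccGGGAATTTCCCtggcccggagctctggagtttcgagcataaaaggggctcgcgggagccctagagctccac
Cxcl2: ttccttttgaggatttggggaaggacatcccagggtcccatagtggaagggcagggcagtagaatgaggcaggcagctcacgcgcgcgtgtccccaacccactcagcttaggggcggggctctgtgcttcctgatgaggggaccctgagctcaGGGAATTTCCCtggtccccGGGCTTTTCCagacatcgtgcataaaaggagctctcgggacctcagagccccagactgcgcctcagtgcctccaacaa
Both windows hold the same 11 letters, GGGAATTTCCC, which begin at −71 in *Cxcl1* and at −97 in *Cxcl2*, counted back from −1 at the last base before the start site. This motif occurs in 5.56% of 32851 RefSeq promoter windows of 300 bases, so a match describes the letters and not a bound site. The antioxidant response element core TGACNNNGC, the letters that NRF2 and its partners recognize (12.4% of windows), was searched for on both strands and had no match in either window.

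*Cxcl1*, the most abundant of the 3, stood at 5.66, 3.78 and 18.3 CPM in LL2 WT. It stood at 14.6, 17.1 and 38.5 CPM in *KEAP1* KO #1, at 15.4, 15.4 and 42.6 CPM in #2 and at 30.5, 28.8 and 68.6 CPM in #3. In *NRF2* KO it stood at 3.00, 1.92 and 8.80 CPM. Replicate 3 was the highest sample of every line, and all 3 samples of *KEAP1* KO #3 lay above all of LL2 WT, while those of #1, #2 and *NRF2* KO overlapped it. The log2 fold change was 2.40 in *KEAP1* KO #3 (95% interval 0.95 to 3.86, adjusted p = 0.0159), which is 5.29-fold on the log2(CPM + 0.1) scale. It was 1.52 in #1 (adjusted p = 0.121) and 1.55 in #2 (adjusted p = 0.0963), neither called, and −0.96 in *NRF2* KO (interval −2.41 to 0.49, adjusted p = 0.664).

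Within each replicate number, *Cxcl1* was higher than LL2 WT in each clone every time, by 1.07 to 2.15 in *KEAP1* KO #1, 1.22 to 2.00 in #2 and 1.90 to 2.90 in #3 on the log2 scale. In *NRF2* KO it was lower every time, by −0.90, −0.94 and −1.05. *Cxcl10* was likewise higher than LL2 WT in each clone every time, by 0.16 to 3.87. The samples of a number are set side by side here and are not known to be pairs. The share of all genes that behave in this way was not computed. With replicate 3 as a batch term the fold changes of *Cxcl1* had adjusted p of 0.000112 in #1, 5.59e-05 in #2 and 1.45e-06 in #3. With replicates 1 and 2 alone they were 1.75, 1.71 and 2.65 (adjusted p = 0.00232, 0.00126 and 0.000179). In *NRF2* KO the batch term gave an adjusted p of 0.0275, with a difference that stayed short of the fold threshold. Leaving out 1 sample took the call in #3 away in 3 cases, namely replicates 1 and 2 of LL2 WT (2.22 and 1.93, adjusted p = 0.0567 and 0.0558) and replicate 3 of #3 itself (2.00, adjusted p = 0.0561). Leaving out replicate 3 of LL2 WT brought *Cxcl1* past both thresholds in #1 (2.18, adjusted p = 0.0400) and #2 (2.1996, adjusted p = 0.0280).

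*Cxcl5* was low in LL2 WT, at 0.234, 0.200 and 0.460 CPM. It was at 1.53, 1.43 and 4.79 CPM in *KEAP1* KO #3, where the log2 fold change was 2.59 (95% interval 1.15 to 4.02, adjusted p = 0.0101). This call held in the 15 alternatives that tested the gene, leaving out each sample in turn included. The filter on a mean of 1 CPM removed it, as it did *Cxcl2*, *Cxcl10* and *Cxcl16*, so counts of alternatives for these 4 members leave that setting out. In *KEAP1* KO #1 the samples were at 0.289, 0.189 and 0.982 CPM and in #2 at 0.353, 0.474 and 1.59 CPM, both overlapping LL2 WT, with log2 fold changes of 0.37 and 0.99 that were not called. In *NRF2* KO they were at 0.0614, 0 and 0.216 CPM (log2 fold change −1.15, interval −2.59 to 0.28), and 2 of 3 lay below every LL2 WT sample. Like *Cxcl1*, the gene was highest in replicate 3 of every line.

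*Cxcl2* was close to the limit of the table, with a sum of 3.03 CPM over the 15 samples. LL2 WT was at 0.107, 0 and 0 CPM, *KEAP1* KO #2 at 0, 0 and 0.0335 CPM, and *NRF2* KO at 0, 0 and 0.0412 CPM. *KEAP1* KO #1 was at 0.0365, 0.654 and 1.34 CPM and #3 at 0.151, 0.355 and 0.306 CPM, so #1 overlapped LL2 WT and #3 lay above it. The call in #1 (log2 fold change 2.06, SE 0.70, adjusted p = 0.0492) was kept in 3 of 15 alternatives, and in *KEAP1* KO #3 the value of 1.49 was not called (adjusted p = 0.12). Of its 31-base stretches, 7.59% also occur in *Cxcl3*, a neighboring CXCR2 ligand that was listed at 0 in LL2 WT and at 0.041 to 0.661 CPM in the 9 *KEAP1* KO samples and did not pass the filter. Over the 3 neutrophil ligands the median log2 fold change was 1.52, 0.99, 2.40 and −0.96 in *KEAP1* KO #1, #2, #3 and *NRF2* KO. Over all genes tested it was 0.11, 0.03, 0.02 and 0.04. With 3 genes the median is the value of 1 gene, *Cxcl5* in #2 and *Cxcl1* in the other lines. The 3 values ran from 0.37 to 2.06 in #1, −0.21 to 1.55 in #2, 1.49 to 2.59 in #3 and −1.15 to −0.18 in *NRF2* KO.

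**Figure D3:**
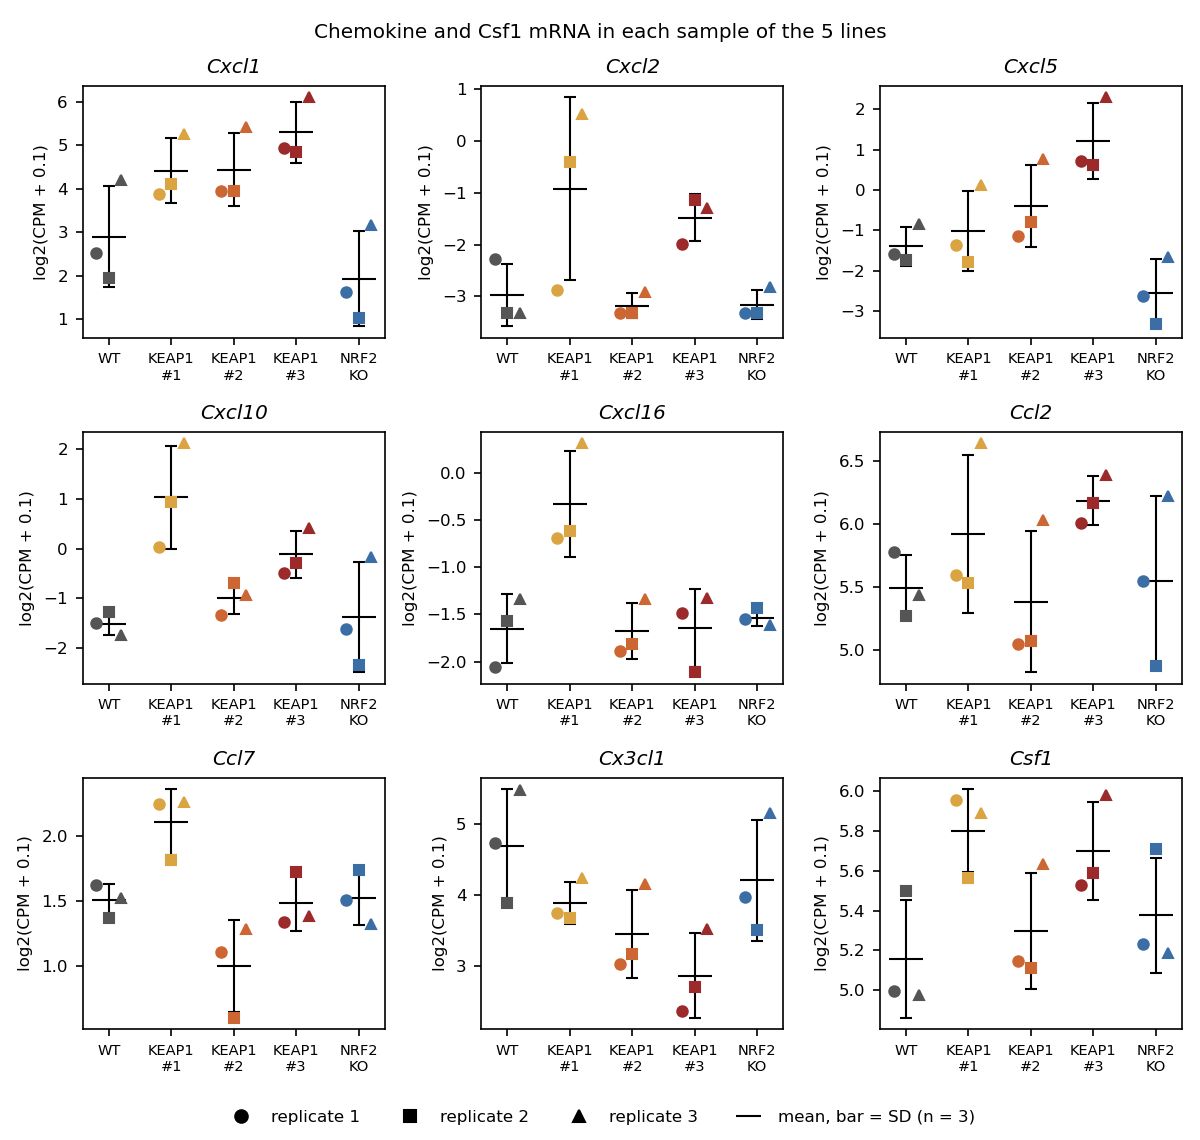
Log2(CPM + 0.1) (y axis) of 9 members in every sample of LL2 WT, *KEAP1* KO #1, #2, #3 and *NRF2* KO (x axis), with a symbol for each replicate number and the mean with its SD (n = 3) as black bars. Replicate 3 tops each line for *Cxcl1*, *Cxcl5* and *Cx3cl1*, *Cxcl10* and *Cxcl16* are highest in *KEAP1* KO #1, and *Cx3cl1* is lowest in *KEAP1* KO #3.

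*Cxcl10* encodes the interferon-induced ligand of CXCR3 on activated T cells and NK cells. It lies on the minus strand of chromosome 5 (chr5:92346638-92348889). Its upstream sequence is shown because it holds all 4 motifs that were searched. It covers chr5:92348890-92349139 on the minus strand (GRCm38.p6, RefSeq). Capitals mark, from left to right, the interferon-stimulated response element (GAAA, any 2 bases, GAAA, in 3.44% of promoter windows), the NF-kB motif at 2 places, and a match of the antioxidant response element core on the other strand that overlaps the AP-1 motif TGANTCA (in 7.81% of windows).
Cxcl10: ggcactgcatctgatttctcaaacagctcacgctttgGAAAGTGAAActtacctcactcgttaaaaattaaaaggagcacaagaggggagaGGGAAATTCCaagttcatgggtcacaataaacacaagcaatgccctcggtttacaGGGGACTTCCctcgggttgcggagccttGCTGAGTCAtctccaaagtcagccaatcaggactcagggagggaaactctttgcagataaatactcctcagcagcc
The matches begin at −213, −159, −104 and −76. Whether any factor binds them in these cells was not measured.

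*Cxcl10* was at 0.253, 0.310 and 0.198 CPM in LL2 WT and at 0.929, 1.81 and 4.26 CPM in *KEAP1* KO #1, where every sample lay above LL2 WT. The log2 fold change of 2.54 (95% interval 1.32 to 3.77, adjusted p = 0.00652) was called in the 15 alternatives that tested the gene and was 1.88 with replicates 1 and 2 alone (adjusted p = 0.0177). *KEAP1* KO #3 was at 0.615, 0.716 and 1.24 CPM, also wholly above LL2 WT, with 1.39 (adjusted p = 0.0788), and it was called with replicate 3 as a batch term (adjusted p = 0.0264). *KEAP1* KO #2 was at 0.294, 0.520 and 0.422 CPM and overlapped LL2 WT (0.52, adjusted p = 0.515). *NRF2* KO was at 0.224, 0.0975 and 0.795 CPM, the widest relative spread of this gene in any line, with 0.14 (interval −1.09 to 1.36). The exons of *Cxcl10* overlap those of *Art3* on the other strand, and the mean of *Art3* was 0.384 CPM for LL2 WT and 0.12 CPM for *KEAP1* KO #1. *Art3* did not pass the filter, and any share of its reads in those of *Cxcl10* was not tested.

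*Cxcl16* encodes a membrane-bound ligand of CXCR6 that is also shed (chr11:70453983-70459984). It was at 0.141, 0.237 and 0.296 CPM in LL2 WT and at 0.517, 0.553 and 1.14 CPM in *KEAP1* KO #1, with no overlap (log2 fold change 1.32, SE 0.37, adjusted p = 0.0207). The other lines lay at the level of LL2 WT, between 0.131 and 0.298 CPM, with log2 fold changes of −0.03 in *KEAP1* KO #2, 0.01 in #3 and 0.12 in *NRF2* KO and intervals within −0.82 and 0.91. Strand use by the library is not stated, and 18.5% of the 31-base stretches of *Cxcl16* also occur in *Zmynd15*, which overlaps it on the other strand. *Zmynd15* moved with it, from 0.1 to 0.289 CPM in LL2 WT to 0.837 to 1.47 CPM in *KEAP1* KO #1 (log2 fold change 2.15, adjusted p = 0.00624). How the reads of the shared stretches were divided between the 2 genes was not tested. The call of *Cxcl16* was kept in 10 of 15 alternatives and lost without *KEAP1* KO #1 replicate 3 (1.00, adjusted p = 0.0833) or LL2 WT replicate 1 (1.12, adjusted p = 0.0766). With replicates 1 and 2 alone it was not called.

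*Cxcl12*, the stromal ligand of CXCR4 (chr6:117168535-117181367), was listed at 0 in 14 of 15 samples and at 0.0193 CPM in *KEAP1* KO #1 replicate 1. No comparison was made for it.

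*Ccl2* and *Ccl7*, which share the receptor CCR2 and lie 8.26 kb apart on chromosome 11 (chr11:82035571-82037453 and chr11:82045712-82047525), behaved differently. *Ccl2* was the most abundant member in CPM, at 54.7, 38.5 and 43.2 CPM in LL2 WT. It was at 48.2, 46.1 and 99.95 CPM in *KEAP1* KO #1, 33.0, 33.5 and 65.3 CPM in #2 and 64.2, 71.6 and 84.0 CPM in #3. *NRF2* KO was at 46.7, 29.2 and 74.6 CPM. *KEAP1* KO #3 lay wholly above LL2 WT by a narrow margin, the others overlapped it, and no difference from LL2 WT was called, nor in any alternative. The log2 fold changes were 0.43, −0.11, 0.69 and 0.05, with intervals from −0.90 at the lowest to 1.49 at the highest, so a doubling in *KEAP1* KO #1 or #3 lies within the error.

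*Ccl7* was at 2.99, 2.48 and 2.78 CPM in LL2 WT. It was at 4.65, 3.43 and 4.71 CPM in *KEAP1* KO #1, all above LL2 WT, and at 2.07, 1.42 and 2.34 CPM in #2, all below it. *KEAP1* KO #3 (2.44, 3.21 and 2.51 CPM) and *NRF2* KO (2.75, 3.24 and 2.41 CPM) overlapped LL2 WT. The log2 fold changes of 0.60 in #1 (adjusted p = 0.0602) and −0.50 in #2 (adjusted p = 0.0922) were not called. The clones, however, differed among themselves, as described further on.

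*Cx3cl1* encodes fractalkine, a chemokine on a membrane stalk that binds CX3CR1 on monocytes and is released by the proteases ADAM10 and ADAM17 (chr8:94772009-94782427). It was the one member with a lower call. LL2 WT was at 26.5, 14.7 and 44.6 CPM and *NRF2* KO at 15.6, 11.3 and 35.5 CPM. *KEAP1* KO #1 was at 13.4, 12.8 and 18.8 CPM, #2 at 8.07, 8.88 and 17.8 CPM and #3 at 5.05, 6.43 and 11.5 CPM, of which only #3 lay wholly below LL2 WT. The log2 fold change was −1.83 in #3 (95% interval −2.87 to −0.80, adjusted p = 0.0113), −1.25 in #2 (adjusted p = 0.064) and −0.81 in #1 (adjusted p = 0.246). For *NRF2* KO it was −0.49 (interval −1.53 to 0.55, adjusted p = 0.77).

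Within each replicate number, *Cx3cl1* was below LL2 WT in all 4 knockout lines, by −0.21 to −1.24 in *KEAP1* KO #1, −0.72 to −1.70 in #2, −1.18 to −2.37 in #3 and −0.33 to −0.76 in *NRF2* KO. The share of all genes with such a run was not computed, and the numbers are not known to mark pairs. With replicate 3 as a batch term *Cx3cl1* was called in #2 (adjusted p = 0.000536) and #3 (adjusted p = 2.77e-05), and with replicates 1 and 2 alone too (−1.21, adjusted p = 0.00994, and −1.78, adjusted p = 0.0019). In #1 the batch term gave an adjusted p of 0.0107, short of the fold threshold. The call in #3 depended on replicate 3 of LL2 WT (−1.44 without it, adjusted p = 0.051) and on its own replicate 1 (−1.58, adjusted p = 0.0526). *Cx3cl1* in #2 was called without replicate 2 of LL2 WT (−1.65, adjusted p = 0.0220) and without its own replicate 3 (−1.60, adjusted p = 0.0327). None of the 4 motifs above occurs in its RefSeq promoter window.

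*Csf1*, the macrophage growth factor (chr3:107741048-107760469), was well expressed in every line. LL2 WT was at 31.8, 45.2 and 31.4 CPM and *NRF2* KO at 37.5, 52.2 and 36.3 CPM. *KEAP1* KO #1 was at 61.9, 47.3 and 59.2 CPM, #2 at 35.3, 34.5 and 49.6 CPM and #3 at 46.0, 48.0 and 63.0 CPM, so that #1 and #3 lay wholly above LL2 WT. The log2 fold change of 0.65 in #1, a 1.56-fold difference (interval 0.21 to 1.08), had an adjusted p of 0.0357 but did not reach the fold threshold. It was 0.54 in #3 (adjusted p = 0.0581), 0.14 in #2 and 0.22 in *NRF2* KO. One match of the NF-kB motif lies in its promoter window, at −154.

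When the 3 clones were compared as a group with LL2 WT, *Cxcl1* (1.82, 95% interval 0.64 to 3.01, adjusted p = 0.0197) and *Cxcl10* (1.49, adjusted p = 0.0235) were called higher and *Cx3cl1* (−1.30, interval −2.15 to −0.45, adjusted p = 0.0202) lower. These are 3 of 9 members where 12.7% of all genes were called (5.81% higher and 6.87% lower). The error of this contrast covers the spread between samples of a line, not that between clones. With *Cxcl1*, *Cxcl10* and *Cx3cl1* alike, the call went away without replicate 1 of LL2 WT (adjusted p = 0.0871, 0.0701 and 0.0675). *Cxcl1* also lost it without replicate 2 of that line (1.35, adjusted p = 0.0995), and *Cxcl10* (1.37, adjusted p = 0.0913) and *Cx3cl1* (−0.91, adjusted p = 0.138) without its replicate 3. With replicates 1 and 2 alone (12.7% of genes called) and with the batch term (13.7%) all 3 were called, and *Cxcl5* too (adjusted p = 0.0305 and 0.000636).

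Against *NRF2* KO, the line in which the pathway is disabled, the 3 clones together had higher *Cxcl1*, *Cxcl5* and *Cxcl10*, again 3 of 9 members (9.94% of all genes called, 5.19% higher and 4.75% lower). The same 3 were called with the batch term (11.1%). With replicates 1 and 2 alone the differences were 2.96, 2.35 and 1.68 (adjusted p = 3.5e-05, 0.00109 and 0.00939). *Cxcl1* differed by 2.78 (interval 1.60 to 3.97, adjusted p = 0.00218) and was called in all 22 alternatives. All 9 *KEAP1* KO samples lay above all 3 of *NRF2* KO for this member alone, which 9.57% of all genes did, and 0 members lay wholly below it (6.94%). *Cxcl5* differed by 2.47 (adjusted p = 0.00453), called in 20 of 21 alternatives, and *Cxcl10* by 1.35 (adjusted p = 0.0475), called in 8 of 21. *Cx3cl1* differed by −0.81 (interval −1.65 to 0.04) and was not called. These values use no LL2 WT sample but share the *KEAP1* KO samples with the contrast before.

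The 3 *KEAP1* KO clones differed from each other in *Ccl7* and *Cxcl16*, 2 of 9 members where 5.58% of all genes were called by the F test with a range of line means over 1. *Ccl7* spanned 1.11 on the log2 scale from *KEAP1* KO #1 down to #2 (adjusted p = 0.0123), and the samples of #1, #3 and #2 followed each other in this order without overlap. *Cxcl16* spanned 1.34 (adjusted p = 0.0369), with #1 above the other clones, which overlapped. For *Cxcl2*, *Cxcl5* and *Cxcl10* the ranges were 2.27, 2.22 and 2.02 with adjusted p of 0.0953, 0.0896 and 0.0757, so differences between clones in these genes were not called. With replicate 3 as a batch term, *Cxcl5* (adjusted p = 0.000472), *Cxcl10* (adjusted p = 0.0172) and *Cx3cl1* (1.02, adjusted p = 0.0115) were called as well, 5 of 9 where 7.66% of genes were, and with replicates 1 and 2 alone it was 4 of 9 (6.65%). For *Cxcl1* the range of 0.88 was not called in any alternative, although its adjusted p was 0.00811 with the batch term. *Cxcl16* lost its call in 7 of the 9 fits that left out 1 sample of a clone. *Ccl7* fell under one of the thresholds without *KEAP1* KO #1 replicate 1 (1.04, adjusted p = 0.0582), #1 replicate 3 (1.03, adjusted p = 0.0571) or #2 replicate 2 (0.91).

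The order of the lines by mean CPM differed between members. For *Cxcl1* and *Cxcl5* it ran from *KEAP1* KO #3 through #2, #1 and LL2 WT to *NRF2* KO, and for *Cx3cl1* from LL2 WT through *NRF2* KO, #1 and #2 to #3. All neighbors in these 3 orders overlapped. For *Cxcl10* the order was #1, #3, #2, *NRF2* KO and LL2 WT, with a gap without overlap between #3 and #2. For *Csf1* it was #1, #3, *NRF2* KO, #2 and LL2 WT, and all neighbors overlapped.

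Compared per kilobase of annotated transcript, the level of *Ccl2* was the highest of all members in LL2 WT, at a mean of 55.9 CPM per kb with a coefficient of variation of 18.4%. The length is the mean over the coding transcripts of a gene, and which of them are expressed is not known. *Cx3cl1* (20.6 ± 10.8 CPM per kb, SD, n = 3), *Csf1* (18.4 ± 4.01) and *Cxcl1* (9.70 ± 8.28) came next, followed by *Ccl7* at 3.43 ± 0.317, while *Cxcl10*, *Cxcl5*, *Cxcl16* and *Cxcl2* were at 0.2075 CPM per kb or less. In *KEAP1* KO #3 the order of the first 4 was *Ccl2* (90.1 ± 12.32), *Cxcl1* (44.7 ± 23.6), *Csf1* (26.7 ± 4.73) and *Cx3cl1* (5.51 ± 2.43). So *Cxcl1* and *Cx3cl1* changed places in level between these lines. In a bulk sample, fewer cells that express a gene and less RNA per cell cannot be told apart.

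Across the 15 samples, *Cxcl1* and *Cxcl5* ran closely together (Pearson r of 0.92), also after the line means were taken off (0.90). *Cxcl1* and *Cx3cl1* had an r of −0.20 over the samples and 0.96 over the deviations from line means. In the *KEAP1* KO clones the 2 genes differed from LL2 WT in opposite directions, while within each line both were highest in replicate 3. In *NRF2* KO both values lay below LL2 WT (−0.96 and −0.49), neither called. These values describe 15 samples that share lines and replicate numbers. Among the 11675 other genes that averaged 1 CPM or more, the nearest to *Cxcl1* over the samples were *Grina* (0.98), *Mllt11* (0.98) and *Tgm2* (0.97), and to *Cx3cl1* *Amer1*, *Rdh14* and *Smarca2* (each 0.97). The nearest to *Ccl2* were *Relb* (0.91) and *Nfkb1* (0.87), both subunits of NF-kB, and *Rnf123* (0.85). *Ccl7* was nearest to *Scly* (0.87), *Idh3g* (0.87) and *Apba3* (0.85), and *Csf1* to *Fst* (0.89), *Stxbp3* (0.87) and *Exoc1* (0.87).

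Among 29 other chemokine genes, 8 passed the filter, and *Ccl20*, the ligand of CCR6 on Th17 cells and immature dendritic cells, was called in all 3 *KEAP1* KO clones. It was at 0.114, 0 and 0 CPM in LL2 WT and at 0.742 to 2.94 CPM in the 9 *KEAP1* KO samples, without overlap. The log2 fold changes were 3.74, 3.02 and 4.05 (adjusted p = 0.000363, 0.00101 and 0.000106), and 0.15 in *NRF2* KO. *Ccl8*, another CC chemokine, reached a call in #2 (2.76, adjusted p = 0.0418), while the difference among the clones did not (adjusted p = 0.476). It was low, at 0 to 0.107 CPM in LL2 WT and 0.591 to 1.48 CPM in #2. Of 15 receptors of the members, 6 passed the filter. The decoy receptor *Ackr2*, which scavenges CC chemokines, was called in *KEAP1* KO #2 (2.40) and #3 (2.77). It was low, at no more than 0.0775 CPM in LL2 WT and at 0.39 to 0.91 CPM in #2 and #3. Limma's F test also called *Ackr2* among the clones (range 2.28, adjusted p = 0.00919). *Cxcr2*, the receptor of the neutrophil ligands, was called in #1 (1.31, adjusted p = 0.00478), at 0.937 to 1.83 CPM in LL2 WT and 3.43 to 3.75 CPM in #1. Its values of 0.97 in #2 (adjusted p = 0.018) and 0.81 in #3 (adjusted p = 0.0426) passed the test but not the fold threshold, and limma's F test made no call among the clones (adjusted p = 0.471). Of 4 other growth factors of the colony-stimulating kind 2 were tested, with 0 calls by limma in each of the 4 comparisons with LL2 WT. An unadjusted p under 0.05 was found for 1 gene in each. Among the 3 clones, however, the F test called 1 of the 2, with a range of 1.07.

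Of 5 proteases that shed or trim chemokines, 4 were tested and *Mmp9*, which cleaves several CXC ligands, was called in #2 and #3 (2.48 and 2.93, adjusted p = 0.00894 and 0.00322). *Mmp9* was low, at 0.0333 to 0.218 CPM in LL2 WT and 0.527 to 3.06 CPM in #2 and #3. *Adam10* (53.2 to 91.4 CPM) and *Adam17* (60.4 to 93.9 CPM) were expressed in all samples and not called. Of 13 NF-kB subunits and inhibitors, all tested, *Nfkbia*, the inhibitor that NF-kB induces, was called in #2 (1.23, adjusted p = 0.000205) and #3 (1.01, adjusted p = 0.000867) and stood just under the fold threshold in #1 (0.97, adjusted p = 0.00181), with no call among the clones (adjusted p = 0.585), while *Rela*, *Relb*, *Rel*, *Nfkb1* and *Nfkb2* were not called in any line. *Ikbkg*, the regulatory subunit of the IKK complex, was called in all 3 clones (2.91, 2.64 and 3.09). Its exons overlap those of *G6pdx* on the other strand, a gene of the pentose phosphate pathway that was called in the same clones (1.02, 1.57 and 1.34), so the source of these reads cannot be told apart.

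Of 10 interferon factors and response genes, 9 were tested. *Rsad2* was called higher in all 3 clones (2.29, 2.46 and 2.42) from a level of at most 0.0445 CPM in LL2 WT. *Ifit3* (−1.66 and −1.80) and *Isg15* (−1.70 and −1.40) were called lower in *KEAP1* KO #2 and #3. Both had values near 0 in #1 (−0.10 and −0.22). Limma's F test called the difference among the clones for *Ifit3* (range 1.71, adjusted p = 0.0206) but not for *Isg15* (range 1.48, adjusted p = 0.126). The 5 mRNA decay factors had 0 calls by limma, and 1 unadjusted p under 0.05 in each *KEAP1* KO clone. In *NRF2* KO 0 of the 47 tested genes of these 7 lists were called by limma. An unadjusted p under 0.05 was found for 5 of them, a share near that of all genes given above for this line. For clone #1 limma made 4 calls among the same 47, beside a background of 8.54% over all genes. The count was 9 for clone #2 (background 13.7%) and 8 for clone #3 (background 13.4%). Among the 3 clones the F test called 4 of the 47 (background 5.58%). The lists were chosen with earlier results known, so these counts describe and do not test.

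**Figure D4:**
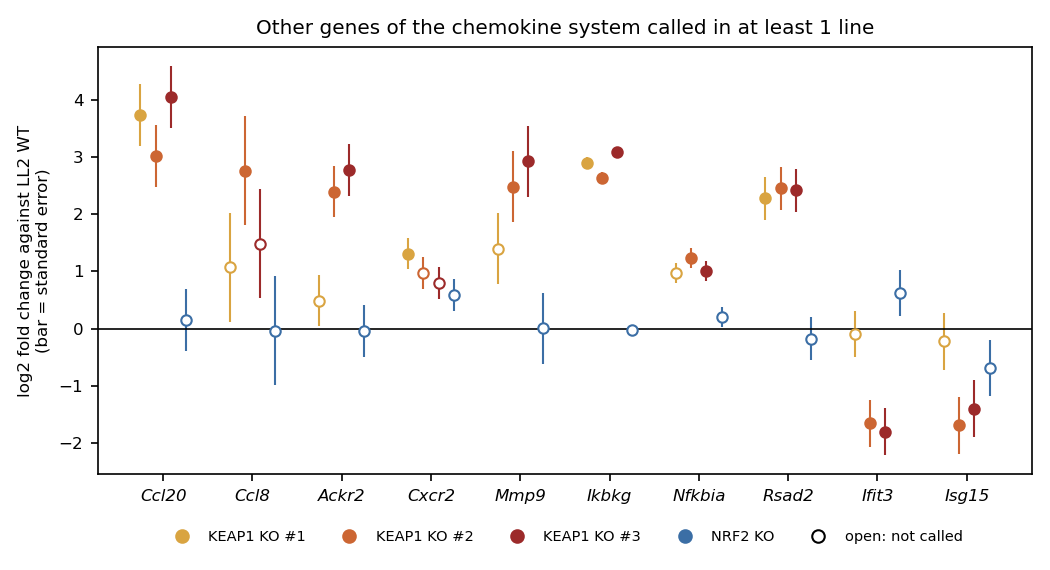
Log2 fold change against LL2 WT (y axis, bars are standard errors from limma) of the genes of the chemokine system outside the members that were called in at least 1 line (x axis), with filled points for called values and a color per line. *Ccl20*, *Ikbkg* and *Rsad2* are filled in all 3 *KEAP1* KO clones, *Ifit3* and *Isg15* lie below 0 in *KEAP1* KO #2 and #3, and all points of *NRF2* KO are open.

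Some markers of neutrophils, macrophages, endothelium and fibroblasts were called in the clones, in both directions, and 0 of the 5 T-cell markers, of which 1 was tested. The 5 neutrophil markers summed to 0.221 to 1.14 CPM in LL2 WT and to 2.12 to 9.02 CPM in the *KEAP1* KO clones. *S100a8* was called in all 3 clones (3.59, 3.77 and 4.42) and *Ly6g* in #2 and #3, while *Csf3r* and *Mpo* stayed at or under 0.125 CPM and *S100a9* at or under 0.228 CPM. The 5 T-cell markers summed to no more than 1.06 CPM in any sample, the 4 endothelial markers to between 2.48 and 7.49 CPM and the 5 fibroblast markers to between 2.39 and 19.8 CPM, the highest in LL2 WT. Of these, *Cdh5* was called higher in #2 and #3 (2.92 and 3.45) and *Col1a1* (−1.70 and −1.92) and *Col1a2* (−1.64 and −1.44) lower, as was *Pdgfra* in #3 (−1.87, adjusted p = 0.00462). Of the macrophage and monocyte markers, *Cd68* was called higher in #2 and #3 (2.202 and 2.86) and *Lyz2* lower (−3.22 and −3.20). *Cd14* was called higher in #1 (1.29, adjusted p = 1.73e-05) and #3 (1.11, adjusted p = 2.68e-05), and in #2 its value of 0.94 (adjusted p = 0.000107) missed only the fold threshold. The part of these markers in the differences of the chemokines was not tested.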

How the data were processed

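RNA of 15 cultures (5 lines, 3 replicates) was measured by sequencing after poly(A) library preparation. The authors pseudo-aligned the reads with Kallisto, filtered low genes and tested with limma. They deposited CPM per gene symbol, which are fractional, and whole reads could not be recovered. The study's methods name the GRCm38.p6 transcripts and the submitters' processing notes GRCm39. The file has no coordinates, and those printed are from GENCODE M21 on GRCm38.p6.

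Here the genes whose CPM added up to 3 or more across samples were kept (14652 of 35880), the threshold of the study's methods. The row that names no gene held 0.0214% to 0.0491% of the CPM of each sample and did not enter the fits. Of all pairs of samples, 0 were identical. Log2(CPM + 0.1) was fitted with limma 3.58.1 in R 4.3.3, with 1 coefficient per line, contrasts and empirical Bayes with a trend, and p-values were adjusted by Benjamini-Hochberg over all 14652 genes. Fold changes on this scale understate changes of low genes. Intervals are 95% intervals of the contrast. Differences among the clones used the moderated F test. Groups and replicate numbers came from the sample titles. Alternatives were pseudocounts of 1 and 0.01 CPM, no filter, a mean of at least 1 CPM, rescaling by the median ratio, quantile normalization, only the lines compared, a replicate block, replicate 3 as a batch term, and leaving out each sample. The fit of replicates 1 and 2 alone was added after the data were seen. The procedure was tested on simulated data that held no replicate 3 effect. Only better expressed genes were changed in them, so the test does not cover low genes.

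The members and all lists were chosen with earlier results of these data known. All 10 members are named. Of the other 15 lists, counts and up to 4 genes each are named, by the number of lines in which they were called and then by size, and *Cxcl3*, *Art3*, *Zmynd15* and *G6pdx* were added after their values were seen. The nearest genes are the 3 with the highest Pearson r. Motifs were searched on both strands of RefSeq promoter windows (250 bases before to 50 after the start), found for 6 of 10 members. Stretches of 31 bases were compared over GENCODE M21 transcripts. Python 3.11.15, numpy 2.4.6, pandas 2.3.3, scipy 1.17.1 and matplotlib 3.10.9 were used.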

Additional observations from a re-analysis of the deposited data

Results flagged for a closer look

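The 3 *KEAP1* KO clones, which carry disruptions of the same gene, differed in 2 members by the F test of limma. The line means of *Ccl7* spanned 1.108 on the log2 scale (adjusted p = 0.0123), with *KEAP1* KO #1 the highest and #2 the lowest clone. *Ccl7* was no longer called with a pseudocount of 1 CPM (0.842, adjusted p = 0.00954), with quantile normalization (0.929, adjusted p = 0.0554) and without *KEAP1* KO #1 replicate 1 (1.04, adjusted p = 0.0582), #1 replicate 3 (1.03, adjusted p = 0.0571) or #2 replicate 2 (0.909, adjusted p = 0.0374). Those of *Cxcl16* spanned 1.345 (adjusted p = 0.0369), with *KEAP1* KO #1 the highest, and *Zmynd15*, which overlaps *Cxcl16* on the other strand, moved with it. The call of *Cxcl16* was lost with pseudocounts of 1 CPM (0.496, adjusted p = 0.0311) and 0.01 CPM (1.66, adjusted p = 0.0545), with only the lines compared (adjusted p = 0.0625), with replicates 1 and 2 alone (1.19, adjusted p = 0.0876) and on leaving out each *KEAP1* KO sample except replicate 3 of #2 and #3, lowest without #1 replicate 3 (1.02, adjusted p = 0.189).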

How the results depend on the processing

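Of 63 tested results for single members, 48 kept their direction in every alternative. Of the 14 that were called, 0 reversed and 3 were called in every alternative that tested them (*Cxcl1* of the clones against *NRF2* KO, and *Cxcl5* in *KEAP1* KO #3 and *Cxcl10* in *KEAP1* KO #1, which a mean of at least 1 CPM removes), while 12 that were not called became so in at least 1.

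The count of members called in *KEAP1* KO #1 (3) went to 1 with a pseudocount of 1 CPM, 0 with a mean of at least 1 CPM, which removes the 3 genes, and 1 with only the lines compared. Calls over all 14652 genes went from 1251 to 784, 877 (of 11676) and 914 in the same order. In *KEAP1* KO #2 (0) the count of members was 1 after rescaling and after quantile normalization, and 2 with the replicate block, with the batch term and with replicates 1 and 2 alone. All-gene calls in #2 went from 2006 to 2046, 2070, 2288, 2287 and 2087. Against *NRF2* KO (3) the count of members was 1 with a pseudocount of 1 CPM and 1 with a mean of at least 1 CPM. All-gene calls went from 1457 to 804 and 1014 (of 11676). Among the clones (2) the count of members was 0 with a pseudocount of 1 CPM, 1 with 0.01 CPM, 1 with a mean of at least 1 CPM, 1 with only the lines compared, 5 with the replicate block, 5 with the batch term and 4 with replicates 1 and 2 alone. All-gene calls went from 818 to 515, 775, 601 (of 11676), 811, 1128, 1122 and 974. Leaving out 1 sample gave 1 to 3 members in #1, 0 to 1 in #2, 0 to 4 for the clones together against LL2 WT and 0 to 3 among the clones. Over all genes the same fits called 922 to 1532, 1553 to 2371, 1487 to 2226 and 565 to 857. Apart from the filter, the cause was not tested.

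Directions turned only for differences that were not called. With replicates 1 and 2 alone these were *Cxcl10* (−0.59) and *Ccl2* (−0.31) in *NRF2* KO, *Ccl7* in #3 (0.035), in the clones together against LL2 WT (−0.022) and against *NRF2* KO (−0.15), and *Csf1* in #2 (−0.12). Rescaling turned *Cxcl16* in #3 (−0.0036) and *Ccl7* in *NRF2* KO (−0.025) and in the clones together (−0.019), and quantile normalization *Ccl7* in #3 (0.17). Leaving out 1 sample gave ranges that cross 0 for *Cxcl2* in #2 (−0.38 to 0.14) and *NRF2* KO (−0.36 to 0.17), *Cxcl5* in #1 (−0.19 to 0.76), *Cxcl10* in *NRF2* KO (−0.47 to 0.62), *Cxcl16* in #2 (−0.23 to 0.13), #3 (−0.19 to 0.24) and *NRF2* KO (−0.083 to 0.28), and *Csf1* in #2 (−0.029 to 0.31). For *Ccl2* they were −0.44 to 0.057 in #2, −0.28 to 0.39 in *NRF2* KO and −0.055 to 0.62 for the clones against *NRF2* KO. For *Ccl7* they were −0.14 to 0.048 in #3, −0.088 to 0.12 in *NRF2* KO, −0.043 to 0.092 for the clones against LL2 WT and −0.093 to 0.11 against *NRF2* KO.

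Samples with the same replicate number correlated over 0.1 (deviations from line means, 11676 genes) in 22 of 30 pairs, 2 of 10 for replicate 1 and 10 of 10 for replicates 2 and 3, and all 15 samples correlated better with their own number. The labels do not tie the numbers to a shared culture or day, so they are not treated as pairs. With the replicate block 4 members were called in #1, 2 in #2, 4 in #3, 0 in *NRF2* KO, 4 in the clones together against LL2 WT, 3 against *NRF2* KO and 5 among the clones. Of all 14652 genes, 1597, 2288, 2270, 179, 2005, 1628 and 1128 were called in the same order. CPM without read counts gives no precision for low values, and *Cxcl2*, *Cxcl5*, *Cxcl10* and *Cxcl16* are low.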
